A study of Homo sapiens with 6 samples.

Results

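The large subunit of the cytoplasmic ribosome joins amino acids into protein, and its protein shell is encoded by the RPL genes. Here 45 of these genes were taken by exact symbol from an RNA-seq table of 26822 distinct gene symbols, and all 45 were found. Where a symbol stood on several rows, the row with the highest mean level would have been kept, but 0 of the 45 genes had more than 1 row.

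RNA was measured in MCF10A, an established, non-transformed line of human breast epithelial cells. The control group received a non-targeting siRNA (siNT) and the knockdown group received siRNAs against PAX9 (siPAX9), a paired-box transcription factor, each at 30 nM for 72 hours, with 3 samples per group. The siRNAs against PAX9 were a pool, so an effect of a single siRNA on other transcripts cannot be told apart from that of the knockdown, and the libraries held poly(A)+ RNA only. The table gives 1 pooled FPKM (fragments counted per transcript length and sequencing depth) per group, so no spread between samples, test or interval was computed here. The depth behind each value is not in the table. The test columns of the authors' own comparison were not used, so the differences below are given without a replicate check. All changes are log2(siPAX9/siNT), with negative values lower after PAX9 depletion.

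The target came first. PAX9 was at 2.80 FPKM in siNT and 0.325 FPKM in siPAX9, a log2 ratio of −3.10, which follows the labels. The breast epithelial keratin gene KRT5 was at 1558 FPKM in siNT and 1807 FPKM in siPAX9. KRT17, another basal keratin, was at 1718 and 2088 FPKM. These keratins make up most of the summed level of the epithelial markers. Among the markers at lower levels, EGFR was at 64.3 and 58.1 FPKM (log2 ratio −0.14), while the others differed more than KRT5 and KRT17. EPCAM, an epithelial adhesion gene, was at 34.3 FPKM in siNT and 16.7 FPKM in siPAX9 (log2 ratio −1.04). CDH1, which encodes E-cadherin, was at 45.3 and 124 FPKM (1.46). TP63, a basal transcription factor, was at 35.4 and 25.3 FPKM (−0.49). All 7 epithelial markers examined were above 0 in both groups, and 4 were higher and 3 lower in siPAX9, and their summed level was 3487 FPKM in siNT and 4161 FPKM in siPAX9. Of the 4 markers of other cells, 3 were higher and 1 was lower in siPAX9, 0 were listed at 0, and their summed level was 3.11 FPKM in siNT and 5.03 FPKM in siPAX9. The most abundant of them in siPAX9 was COL1A1, a fibroblast collagen, at 0.454 FPKM in siNT and 4.13 FPKM in siPAX9. PECAM1, an endothelial marker, was at 2.58 and 0.495 FPKM. The other 2, PTPRC and ESR1, had a mean FPKM under 1, and with a minimum of 1 the markers were 1 higher and 1 lower. The part of these markers in the results was not tested.

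Ribosomal proteins are made in the cytoplasm, imported into the nucleolus and placed on ribosomal RNA, with excess protein degraded. Their mRNAs are among the most abundant of growing cells and usually start with a C followed by a run of pyrimidines, the 5′ terminal oligopyrimidine (TOP) motif, through which growth signals set their translation. Some large-subunit proteins have a further role when assembly is disturbed, as free RPL5 and RPL11 bind MDM2 together with 5S ribosomal RNA, and many RPL introns host small nucleolar RNAs.

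Promoter windows are shown first because these genes moved together and many of them have a pyrimidine start. RefSeq windows (GRCh38.p14) of 250 bases before and 50 bases after the start were matched for 38 of the 45 genes. RPL5, RPL7, RPL8, RPL23, RPL23A, RPL30 and RPL37 had none in the table used. The lines give 40 bases before and 20 bases from the start base on, with capitals for the longest pyrimidine run near the start, for the 3 matched genes with the largest falls and then the 3 with the smallest.
RPL3: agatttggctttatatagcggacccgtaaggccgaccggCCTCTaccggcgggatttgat
RPL10A: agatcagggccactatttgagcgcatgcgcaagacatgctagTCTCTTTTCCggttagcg
RPL12: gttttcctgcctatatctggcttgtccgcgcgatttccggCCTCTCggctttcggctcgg
RPL36A: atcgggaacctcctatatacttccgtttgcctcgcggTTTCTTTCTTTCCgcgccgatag
RPL35: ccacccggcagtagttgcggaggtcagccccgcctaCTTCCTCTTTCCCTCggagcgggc
RPLP2: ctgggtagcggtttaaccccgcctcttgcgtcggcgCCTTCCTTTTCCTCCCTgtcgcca
These windows lie at chr22:39319604-39319663 (minus strand), chr6:35468361-35468420 (plus), chr9:127451387-127451446 (minus), chrX:101390971-101391030 (plus), chr9:124861938-124861997 (minus) and chr11:809927-809986 (plus), in that order. The run was 5, 10 and 6 bases long in the first 3 genes and 13, 15 and 17 bases long in the last 3. Over all 38 windows run length and log2 ratio correlated with r = 0.25 (rho 0.20), and with r = −0.03 (rho −0.07) over the 32 without these 6 genes, as descriptions across genes of the same libraries. RPL13A and RPL17, both past 2-fold, had runs of 14 and 16 bases, and RPL11 had one of 5.

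A C at the start base followed by 4 pyrimidines was found in 25 of 38 large-subunit windows (65.8%), in 18 of 25 small-subunit windows (72%) and in 1104 of all 27303 windows (4.04%). Within 5 bases of the start base the same letters were found in 31 large-subunit windows (81.6%) and in 21.1% of all windows. Genes with the pyrimidine start had a median log2 ratio of −0.69 (25 genes) and those without it −0.80 (13 genes), and the ranges overlapped. The letters CCGGAAG, searched on both strands, were in 12 of 38 windows (31.6%) and in 10.7% of all windows. The median log2 ratio was −0.74 in the 12 genes with these letters and −0.74 in the 26 without. AAGATGGC was in 4 windows (10.5%, against 3.03% of all) and TATAAA in 3 (7.89%, against 12.0% of all). GCGTGACCA and GCGGAACGG were in 0 of the 38 windows, and in 0.158% and 0.238% of all windows. These are letter matches only and say nothing of factor binding.

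All 45 large-subunit genes were lower in siPAX9 than in siNT, beside 55.3% of the 12475 named loci with a mean FPKM of at least 1 and 70.0% of the 593 with a mean of at least 100. Their median level was 882 FPKM in siNT and 486 FPKM in siPAX9, and the median log2 ratio was −0.73, with a range from −1.74 in RPL3 to −0.35 in RPLP2. Lower by 2-fold or more were 7 of 45 genes (15.6%), beside 6.55% of the former loci and 10.3% of the latter. Lower by 1.5-fold or more were 31 of 45 (68.9%), beside 16.4% and 33.6%. None was higher by 2-fold, beside 6.28% of named loci with a mean FPKM of at least 1. Another 14 genes were lower by less than 1.5-fold. The lower level was thus shared by all 45 genes and mostly under 2-fold, and the more abundant loci of the table as a whole also lay lower, with a median of −0.34 beside −0.07 for all named loci. Because these were bulk samples, fewer cells of a type and less RNA per cell cannot be told apart.

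**Figure D1:**
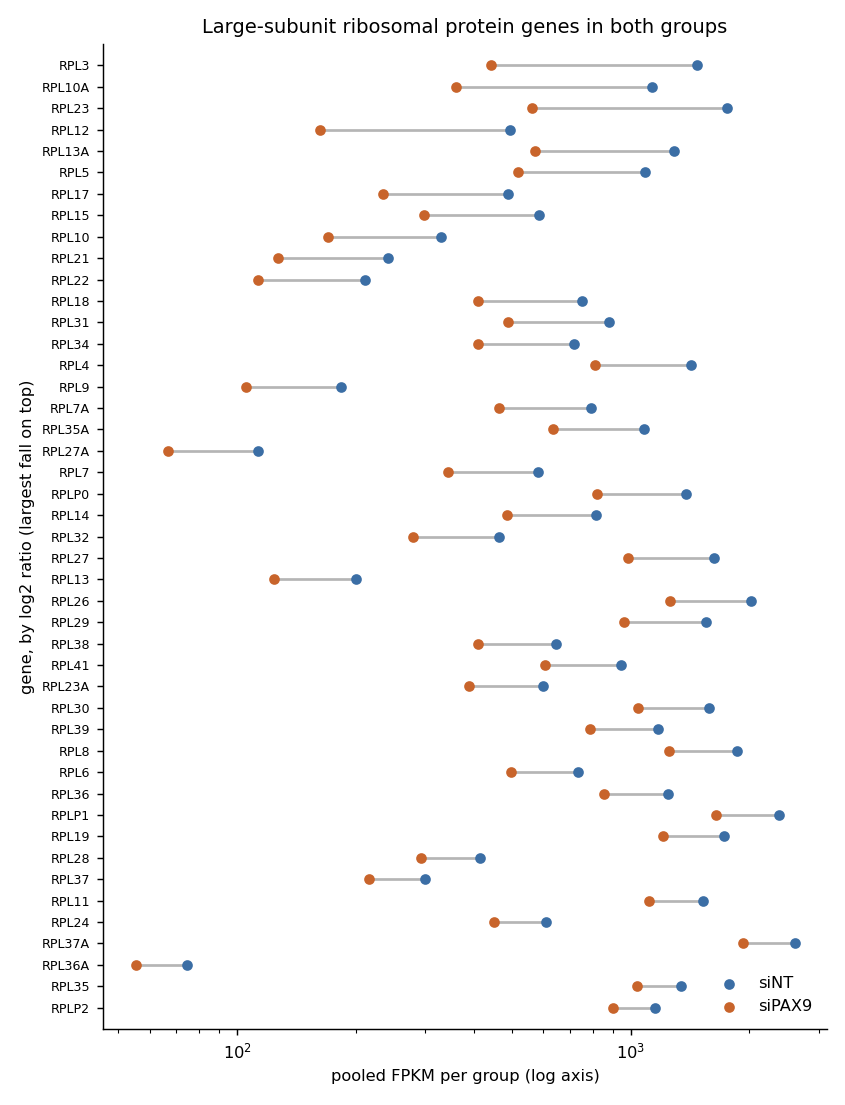
Pooled FPKM (log axis) of each of the 45 large-subunit genes in siNT (blue) and siPAX9 (orange), ordered by log2 ratio with the largest fall on top; a point is 1 pooled value per group, with no error. The siPAX9 point lies left of the siNT point for every gene, with the widest gaps in RPL3, RPL10A, RPL23 and RPL12.

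The size of the difference depends on the scale set between the groups. The log2 ratio of the summed FPKM of named loci, siPAX9 over siNT, was −0.27. Relative to that shift the median of the 45 genes was −0.46, 4 genes were past 2-fold (3.91% of named loci on this scale) and 12 were past 1.5-fold (8.76% of named loci). All 45 were still lower, RPLP2 by the least at −0.08, while the share of named loci that were lower went from 55.3% to 33.9%. Counts past a given fold in the groups below are for the values as deposited, and several are smaller on this scale, for example from 5 to 1 of 8 past 1.5-fold around the exit tunnel. The 45 genes made up 7.78% of the named FPKM in siNT and 5.66% in siPAX9.

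**Figure D2:**
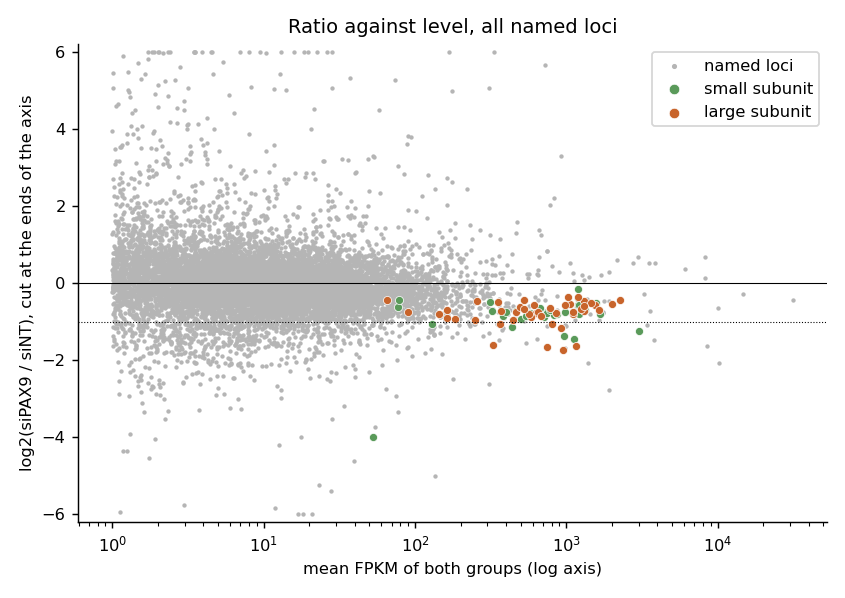
Log2(siPAX9/siNT) against the mean FPKM of both groups (log axis) for the 12475 named loci (grey), the small-subunit genes (green) and the large-subunit genes (orange), as pooled values; loci past the ends of the vertical axis are drawn at its ends and the dotted line marks 2-fold lower. The large-subunit genes sit at the right among abundant loci and all lie under 0.

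The order of the levels was largely kept. Across the 45 genes the log2 levels of both groups correlated with r = 0.96, as a description across genes that share the same libraries. RPL37A, a small zinc-binding protein, was the highest in siNT at 2603 FPKM and also in siPAX9 at 1925 FPKM. RPLP1 was next at 2379 and 1643 FPKM, and RPL26 was at 2024 and 1256 FPKM. At the other end RPL36A was at 74.6 and 55.2 FPKM, RPL27A at 113 and 66.8 FPKM, and RPL9 at 184 and 106 FPKM. The same genes thus held both ends of the order in both groups, while RPL3 moved from rank 11 to rank 26 and RPL23 from rank 5 to rank 19. Pseudogenes (copies of a gene, described below) had loci above the low genes RPL36A, RPL27A and RPL9 in siNT, at 8659, 2646 and 3267 FPKM. So had RPL26, near the top of the order, at 14193 FPKM. The part of read assignment in this order was not tested.

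The peptidyl transferase centre is where peptide bonds form. RPL3, whose long loop reaches toward this centre, was at 1472 FPKM in siNT and 440 FPKM in siPAX9 (log2 ratio −1.74; hg19 chr22:39708887-39715670), the largest fall of the 45. RPL10, which joins the subunit late and is needed for its final maturation, was at 331 and 170 FPKM (−0.96). RPL8, another protein close to the centre, was at 1858 and 1253 FPKM (−0.57). Within this group of 3 the ratios thus ran from the largest fall of the 45 to one under 1.5-fold.

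RPL5 and RPL11 bind 5S ribosomal RNA as a unit before it joins the subunit, yet their ratios differed. RPL5 was at 1086 FPKM in siNT and 518 FPKM in siPAX9 (−1.07). RPL11 was at 1523 and 1112 FPKM (−0.45), among the smaller falls. RPL23, a protein of the subunit that also binds MDM2, was at 1750 and 561 FPKM (−1.64; hg19 chr17:37006321-37010053). MDM2, a ubiquitin ligase, was at 43.6 FPKM in siNT and 161 FPKM in siPAX9, and CDKN1A, a cell cycle inhibitor, was at 69.0 and 373 FPKM. MDM4, a relative of MDM2, was at 23.0 and 20.4 FPKM, lower as deposited (−0.17) but higher by summed FPKM (0.10). Any link between these values and the large-subunit genes was not tested.

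The stalk recruits translation factors. RPLP0, its base, was at 1382 FPKM in siNT and 818 FPKM in siPAX9 (−0.76). RPLP1 was at −0.53 and RPLP2 at −0.35, with RPLP2 at 1150 and 900 FPKM. RPL12, which sits beside the stalk base, was at 493 and 163 FPKM (−1.60; hg19 chr9:130209953-130213711). RPL12 was the only stalk gene past 2-fold, and the ratios of the acidic proteins RPLP1 and RPLP2 were closer to 0 than that of the base.

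Around the exit tunnel, through which the new chain leaves, 8 of 8 genes were lower, 5 of them by 1.5-fold or more, with a median of −0.65. Of named loci with a mean FPKM of at least 1, 55.3% were lower and 16.4% were lower by 1.5-fold or more. At a mean of at least 100 these shares were 70.0% and 33.6%. By summed FPKM 1 of the 8 genes was past 1.5-fold, beside 8.76% of named loci. RPL17 was at 489 FPKM in siNT and 235 FPKM in siPAX9 (−1.06), and its row is shared with C18orf32 and SNORD58B. RPL4, which extends a loop into the tunnel, was at 1418 and 810 FPKM (−0.81). RPL31, at the rim, was at 882 and 487 FPKM (−0.86). RPL26, RPL23A and RPL39 were at −0.69, −0.62 and −0.57, and RPL19 was at −0.52. RPL35 was at 1343 and 1039 FPKM (−0.37), one of the smallest falls. The tunnel genes thus spanned a wide part of the range of the 45.

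At the interface with the small subunit, RPL24 was at 609 FPKM in siNT and 448 FPKM in siPAX9 (−0.44), and RPL41, the shortest protein of the set, was at 946 and 606 FPKM (−0.64). RPL10A, near the exit site for tRNA, was at 1135 and 359 FPKM (−1.66; hg19 chr6:35436178-35438558), the next largest fall after RPL3. RPL13A, also known for a role outside the ribosome in interferon-induced silencing of translation, was at 1284 and 572 FPKM (−1.17). Together with RPL5, RPL17, RPL3, RPL23 and RPL12 these were the 7 genes past 2-fold.

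Genes in which mutations cause Diamond-Blackfan anaemia, an inherited failure of red cell production, were all 9 lower, with a median of −0.76 and 1 past 2-fold (RPL5). That call was lost under rescaling, with RPL5 just short of −1 when centred on the median of named loci and at −0.80 by summed FPKM, which leaves 0 of 9. As deposited, 55.3% of named loci with a mean FPKM of at least 1 were lower and 6.55% were past 2-fold. At a mean of at least 100 these shares were 70.0% and 10.3%. RPL15 was at 584 FPKM in siNT and 299 FPKM in siPAX9 (−0.97), RPL18 at 752 and 408 FPKM (−0.88), RPL35A at 1078 and 634 FPKM (−0.76) and RPL27 at 1630 and 984 FPKM (−0.73). Small nucleolar RNAs lie inside 18 of the 45 genes in the annotation. Of these hosts, 15 were lower by 1.5-fold or more and 6 by 2-fold or more, with a median of −0.79. Of the 27 genes without one, 16 were lower by 1.5-fold or more and 1 by 2-fold or more, with a median of −0.68. The background over all named loci is the 16.4% and 6.55% given above, or 33.6% and 10.3% at a mean FPKM of at least 100. The list of hosts drawn up at first held 15 of the 18, with a median of −0.93, and had left out RPLP2, RPL37 and RPL39, at −0.35, −0.48 and −0.57; the annotation was used after the values were seen. RPL21, one of these hosts, was at 242 and 127 FPKM (−0.93), and RPL30 was at 1582 and 1045 FPKM (−0.60). Small nucleolar RNAs themselves were not analysed here.

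The remaining genes lay between. RPL22, an RNA-binding protein of the subunit, was at 211 FPKM in siNT and 113 FPKM in siPAX9 (−0.91). RPL34, RPL9, RPL7A and RPL27A were at −0.81, −0.80, −0.77 and −0.76, and RPL7, RPL14, RPL32 and RPL13 at −0.76, −0.75, −0.73 and −0.69. RPL29 and RPL38 were at −0.68 and −0.66. RPL6 and RPL36 were at −0.56 and −0.54. RPL28, RPL37 and RPL37A were at −0.49, −0.48 and −0.44, and RPL36A, which shares its row with HNRNPH2, was at −0.43. Rows are shared with other symbols in 5 genes (RPL17, RPL27, RPL28, RPL32 and RPL36A), so their values may hold reads of those genes. Some rows with a single symbol span long regions, as for RPL5 (hg19 chr1:93297594-93427079), RPL31 (chr2:101618691-101767846) and RPL6 (chr12:112842985-112947717). Whether the values of such rows hold reads of neighbouring genes was not tested.

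The comparison lists place these falls. Of named loci with a mean FPKM of at least 1, 55.3% were lower as deposited and 33.9% by summed FPKM. The shares lower by 2-fold or more were 6.55% and 3.91%. All 32 small-subunit genes were lower as deposited, 6 of them past 2-fold, with a median of −0.77, and by summed FPKM 31 were lower and RPS19 higher, 3 past 2-fold, with a median of −0.50. The large-subunit median lay 0.04 above theirs. RPS28 had the largest fall of that list as deposited, at −3.98, and RPS19 was at −0.17, or 0.10 by summed FPKM. Other TOP mRNAs, a mixed list with elongation and initiation factors, NPM1, HNRNPA1 and VIM among others, were 18 of 18 lower on both scales with a median of −0.86 as deposited and −0.59 by summed FPKM, and VIM, an intermediate filament gene, had the largest fall of that list at −2.49. Large-subunit assembly factors were 30 of 35 lower as deposited with a median of −0.22, but 17 of 35 by summed FPKM with a median of 0.05, and 2 were past 2-fold on both scales. Mitochondrial large-subunit genes were 41 of 49 lower as deposited with a median of −0.33, and 31 of 49 by summed FPKM with a median of −0.06. Median ratios were thus lower in both cytoplasmic subunits and in the other TOP mRNAs than in the assembly factors and the mitochondrial genes, as a description of these lists without a test.

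**Figure D3:**
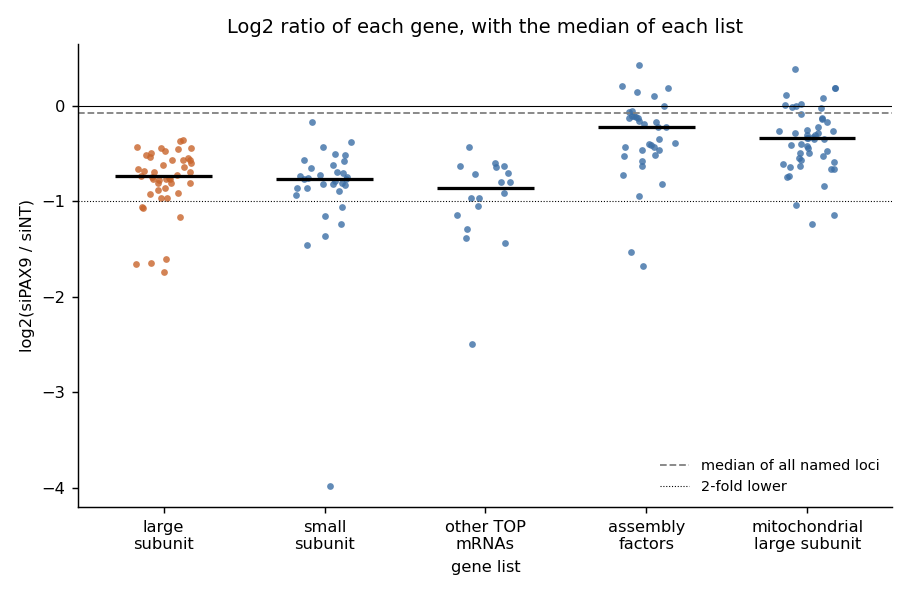
Log2(siPAX9/siNT) of each gene (points, 1 pooled value per group) in 5 lists, with the list's median (black bar), the median of all named loci (dashed line) and 2-fold lower (dotted line). The large-subunit, small-subunit and other TOP lists have medians of −0.73, −0.77 and −0.86, and the assembly factors and mitochondrial genes −0.22 and −0.33, where by summed FPKM the assembly factors' median turns to 0.05.

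Paralogs differed from the genes they resemble. RPL22L1 was at 67.9 FPKM in siNT and 12.6 FPKM in siPAX9 (−2.43), beside −0.91 for RPL22, with coding sequences 66.6% identical. RPL36AL was at −0.23, beside −0.43 for RPL36A, with coding sequences 89.9% identical, so reads of this pair are uncertain. RPL26L1 was at −0.16 beside −0.69 for RPL26 (84.1% identical), and RPL7L1 at −0.42 beside −0.76 for RPL7 (55.2% identical). By summed FPKM RPL36AL and RPL26L1 were instead higher in siPAX9, at 0.04 and 0.11. RPL39L was at 0.917 FPKM in siNT and 2.20 FPKM in siPAX9, beside −0.57 for RPL39, and with coding sequences 94.8% identical the reads of this pair are uncertain too. RPL3L was listed at 0 in siNT and at 0.0412 FPKM in siPAX9, and RPL10L was listed at 0 in both groups.

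Regulators of TOP mRNAs did not move together. Of the 7 examined, 4 were lower and 3 higher as deposited, and 2 were lower and 5 higher by summed FPKM. Of named loci, 55.3% and 33.9% were lower on these scales. LARP1, which binds the TOP motif, was at 103 FPKM in siNT and 90.0 FPKM in siPAX9 (−0.20, or 0.07 by summed FPKM). MTOR was at 10.8 and 13.3 FPKM. RPTOR, EIF4EBP2 and RPS6KB1 were at −0.04, 0.02 and 0.02 as deposited. EIF4EBP1, which represses cap-dependent translation, was at 122 and 30.5 FPKM. MYC, a transcription factor that acts on ribosome genes, was at 394 and 248 FPKM.

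Reads could have been shared with pseudogenes, because RPL genes have many copies without introns and the aligner used does not split reads over introns. The annotation lists 1088 pseudogenes of the 45 genes, and 201 loci with a mean FPKM of at least 1 lay on them, for 41 genes. Of these loci, 185 were lower (92.0%) and 16 were higher. Lower by 2-fold or more were 64 (31.8%), and the median was −0.83. Of all 9367 loci without a symbol, 48.2% were lower and 11.7% were lower by 2-fold or more, with a median of 0.05. These shares are not matched for level. The median level in siNT was 8.10 FPKM for the loci without a symbol and 510 FPKM for the pseudogene loci. Restricted to 192 loci that aligned to the mRNA over at least 50% of their length, a set chosen after seeing the data, the median was −0.84. The ratios varied with locus length, since the 19 loci under 100 bases had a median of −1.25 with 63.2% lower by 2-fold or more, and the 85 loci of 300 bases or more a median of −0.83 with 23.5%. In 32 of the 45 genes a pseudogene locus exceeded the gene's own siNT FPKM. These loci were as short as 76 bases, and because FPKM divides by length the levels of short loci are hard to compare with those of genes. Some long loci were above their gene too. RPL13P12 (744 bases) was at 1725 FPKM in siNT beside 200 FPKM for RPL13, and RPL12P4 (501 bases) at 1449 beside 493 FPKM for RPL12. Others were below it, as RPL3P7 (1138 bases) at 418 FPKM beside 1472 FPKM for RPL3. Which of the gene and the pseudogene the reads came from was not tested.

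Of these loci, 185 spanned an exon junction of the parent mRNA. One of them is shown because it has a very high FPKM and crosses a junction in coding sequence, where the spliced mRNA and the intron-free copy are nearly the same. The mRNA stretch of RPL5 and the locus RPL5P29 (hg19 chr11:56124840-56124944, plus strand) are given from the reference genome, with capitals at the bases that differ.
RPL5 mRNA: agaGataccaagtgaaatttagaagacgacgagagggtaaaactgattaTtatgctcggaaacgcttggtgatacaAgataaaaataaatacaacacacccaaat
RPL5P29: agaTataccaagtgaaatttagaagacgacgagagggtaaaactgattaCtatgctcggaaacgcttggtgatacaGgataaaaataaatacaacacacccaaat
Over 105 bases RPL5P29 differs from the mRNA at 3 positions, and the junction after exon 2 follows base 33. RPL5P29 was at 41625 FPKM in siNT and 22806 FPKM in siPAX9.

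Among the 7 genes past 2-fold, some had pseudogene loci with similar ratios and others did not. The median log2 ratio was −1.64 over 8 loci for RPL3, −1.61 over 12 loci for RPL12, −1.66 over 2 loci for RPL10A and −1.12 over 12 loci for RPL5. RPL13A, at −1.17 itself, had a median of −0.82 over 9 loci, and RPL17, at −1.06, one of −0.90 over 7. RPL23, at −1.64 itself, had only 2 loci, 1 at −1.47 with 526 FPKM in siNT and 1 at 0.78 with 1.52 FPKM. Across the 41 genes with such loci, the loci's median and the gene's ratio correlated with r = 0.69 (Spearman's rho 0.66). Across the 26 genes with at least 3 loci r was 0.84 (rho 0.70), and 0.63 (rho 0.62) without RPL3 and RPL12. These points share libraries, and possibly reads, so they are no independent support. The 5 genes without a pseudogene locus at 10% or more of their own level (RPL11, RPL28, RPL41, RPLP1 and RPLP2) had a median of −0.49, 5 of 5 lower and 0 past 2-fold.

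**Figure D4:**
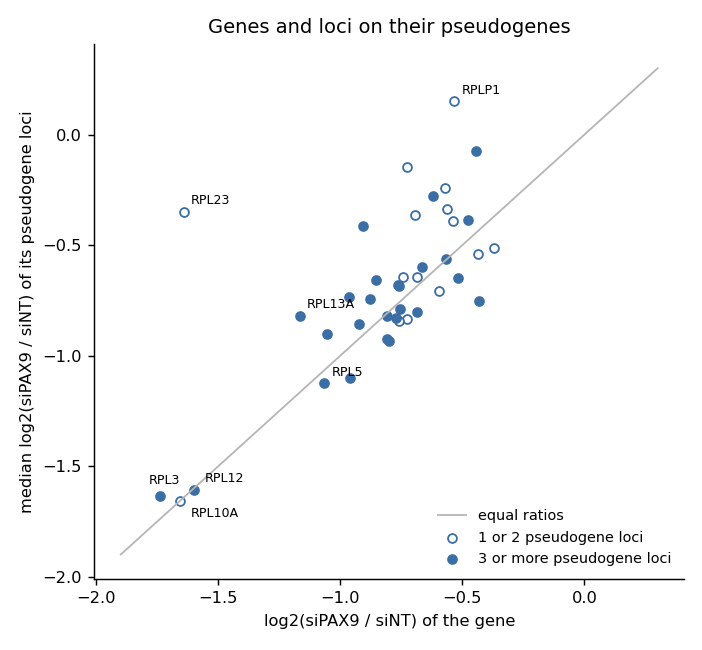
Median log2(siPAX9/siNT) of the loci on a gene's pseudogenes against the log2 ratio of the gene, for 41 genes, with filled points for genes with 3 or more loci, open points for 1 or 2, and the grey line where both are equal. RPL3, RPL10A and RPL12 lie together at the lower left, while RPL23 lies above the line, as the median of 2 loci at 526 and 1.52 FPKM in siNT.

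Gene features were set beside the ratios as descriptions across the same libraries, among 14 relations computed beside those of run length, 4 of them repeats on fewer loci or genes. Coding length gave r = −0.39 and rho −0.48 over 45 genes, with longer coding sequences lower, and r = −0.28 (rho −0.44) without RPL3 and RPL4. Length of the whole mRNA gave r = 0.06 and rho −0.18. The number of annotated pseudogenes gave r = −0.12 and rho −0.35. The share of 76-base read starts that fit within 1 exon, which matters for an aligner that does not split reads, gave r = 0.15. GC content of the mRNA gave r = 0.05 (rho 0.17), and the level in siNT gave r = −0.02 (rho 0.18).

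**Figure D5:**
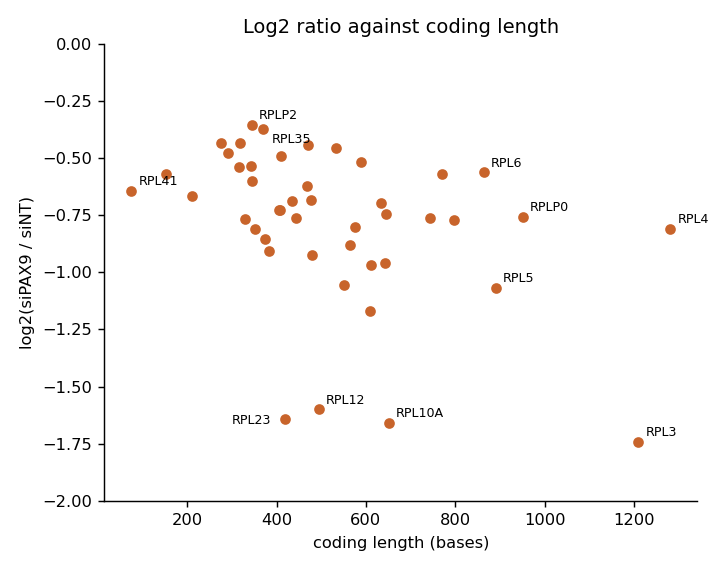
Log2(siPAX9/siNT) of the 45 large-subunit genes against coding length in bases, 1 point per gene. RPL3 and RPL4 are the longest and sit at −1.74 and −0.81, and RPL23, RPL12 and RPL10A lie low at middling lengths.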

How the data were processed

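Libraries of poly(A)+ RNA were read by the authors from one end over 76 bases. Partek Flow was used for alignment (Bowtie 2, hg19) and for quantification (Cufflinks). The deposited table holds 1 FPKM per group and locus, pooled by the authors over 3 samples; how libraries were scaled is not given in the sources used here. Its log2 fold change, test statistic, p-value, q-value and significance columns hold the authors' own comparison and were not used. The table gives no depth per value; the study's methods give reads per library only as a range.

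Ratios were log2(siPAX9/siNT) without a pseudocount. Called means past 2-fold (or 1.5-fold). The members and lists were chosen with earlier results of these data known. Genes named were the role groups, members past 2-fold, the 5 largest and 5 smallest ratios and the 3 highest and lowest levels; the other members were named to account for all.

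Pseudogene loci had at least 50% of their length on a GENCODE release 44 pseudogene (GRCh37). This overlap, the mean FPKM of at least 1, the 8 bases required on each side of a junction and the aligned-length restriction were set during the analysis. Protein identity between paralogs had been planned; coding sequence identity was computed in its place because no protein table was used. Ratio and count functions were tested on simulated data. Python 3.11.15, pandas 2.3.3, numpy 2.4.6, scipy 1.17.1 and matplotlib 3.10.9 were used. Some items are not reported here.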

Additional observations from a re-analysis of the deposited data

How the results depend on the processing

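No paired analysis was possible because the table holds 1 value per group, and leaving out replicates was not possible for the same reason. All members were lower under every alternative run. The main median log2 ratio of −0.73 became −0.66 when centred on the median of named loci, −0.46 when divided by the summed FPKM of named loci, −0.64 by the upper quartile, −0.75 with single-symbol rows (40 genes) and −0.49 in the 5 members without an abundant pseudogene locus. The count past 2-fold, 7 of 45, became 5 when centred, 5 by the upper quartile, 4 by summed FPKM, 6 with single-symbol rows and 0 of those 5 members. Centred, RPL5 and RPL17 were no longer past 2-fold (RPL17 at −0.99, RPL5 just short of −1). The count past 1.5-fold, 31, became 28, 27, 12 and 28 in the first 4 of these settings. The difference from the median of named loci, −0.66, became −0.67 with 1 added to each FPKM, −0.68 with single-symbol rows, −0.39 against loci with a mean FPKM of at least 100 and −0.74 with no minimum. The percent of named loci lower by 2-fold, 6.55, became 4.51 with 1 added, 5.74 when centred, 3.91 by summed FPKM, 5.51 by the upper quartile, 6.59 with single-symbol rows, 10.3 at a mean FPKM of at least 100 and 8.20 with no minimum. The cause of these shifts was not tested, apart from the fewer genes or loci that some settings hold. Centring and scaling shift all genes equally, so they cannot change the differences from the named-locus or small-subunit medians; the latter, 0.04, was 0.04 with 1 added, with single-symbol rows and with summed rows. The pseudogene median was −0.83 in 201 loci, and, chosen after seeing the data, −0.84 in the 192 aligned loci, −0.83 in the 85 loci of 300 bases or more and −1.25 in the 19 loci under 100 bases. The median of the snoRNA hosts was −0.93 on the 15 genes listed first and −0.79 on the 18 in the annotation, also chosen after seeing the data.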
